A study of Danio rerio with 8 samples.

Results

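Translation of most mRNAs starts when a set of eukaryotic initiation factors (eIFs) brings the small ribosomal subunit and the initiator tRNA to the capped 5′ end of the message and lets them scan to a start codon. eIF4E, eIF4G and eIF4A bind and open the capped end, eIF2 carries the initiator tRNA, eIF3, eIF1 and eIF1A sit on the small subunit during scanning, and eIF5 and eIF5B take part in the release of the factors and the joining of the large subunit. The pathway is known to be held back at 2 points, by kinases that phosphorylate eIF2 and by the eIF4E-binding proteins that compete with eIF4G for eIF4E. The eIF genes were followed here in whole zebrafish embryos at 8 hours post fertilization (hpf), a stage of gastrulation at which the embryo still holds transcripts laid down by its mother. They were all genes with a symbol beginning with eif and a digit from 1 to 6, and with a mean of at least 1 CPM, the count relative to the library's total, over the 8 libraries. Of the 32520 genes counted, 66 had such a symbol and 64 reached the minimum. These were 5 genes of factor 1, 14 of factor 2, 16 of factor 3, 24 of factor 4, 4 of factor 5 and the single *eif6* gene. The *eif2ak2* gene, which encodes the kinase PKR, lay just below the minimum, with 1.94, 1.80, 1.32 and 0.700 CPM in wild-type replicates 1 to 4 and 0.523, 0.546, 0.122 and 0.577 CPM in *miR-34a-/-* replicates 1 to 4, of which replicate 3 held 1 count. The other gene left out was a row named *eif3b* (ENSDARG00000074213), which was at 0 counts in 6 of the 8 libraries, and the member nearest above the minimum was *eif3hb* with a mean of 2.25 CPM.

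The study asked what the loss of the microRNA miR-34a changes in the transcriptome of the early embryo. Wild-type embryos of the *casper* line, whose fish lack most of their pigment, were compared with *miR-34a-/-* embryos of the same background, with 4 libraries each. The deletion was made with CRISPR/Cas9, comes from 1 allele and was kept as a separate homozygous line, so that the mutant embryos had mutant mothers and the wild-type embryos were not their siblings. Each library held polyadenylated RNA of a pool of whole embryos, 30 per the methods and up to 50 per the labels, and whether pools of 1 genotype came from separate crosses is not stated in the sources used here, so that p-values measure the spread between these libraries, which may be technical. With separate lines, the genotype and the line cannot be told apart, and in whole embryos fewer cells of a type cannot be told apart from less RNA per cell.

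The libraries held between 7132045 and 15724724 counts, and 1 count was worth between 0.0636 and 0.140 CPM. The *mir34a* gene itself had 0 counts in every library, wild-type included, so that these counts do not check the genotype labels. The first principal component of all genes separated the genotypes, with the wild-type libraries between -37.4 and -35.1 and the *miR-34a-/-* libraries between 32.9 and 38.0, while wild-type replicate 4, the library with the fewest counts, stood apart on the second component at -24.9. At a false discovery rate of 0.05 (edgeR's quasi-likelihood test, Benjamini-Hochberg adjustment over 13842 genes), 45.4% of all genes tested differed between the genotypes, 23% higher and 22.4% lower in *miR-34a-/-* embryos. In 38.8% of genes the libraries of the genotypes did not overlap. A gene that passed the test is called here, and every adjusted p below comes from that test unless another fit or a left-out library is named.

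Together the initiation factor genes took between 1.37% and 1.42% of the counts in wild-type and between 1.36% and 1.41% in *miR-34a-/-* libraries, while many single genes differed. Their summed level was 13916 ± 294 CPM (SD, n = 4) in the wild-type libraries, which overlapped with 13869 ± 138 CPM in the mutant libraries. Of the 64 genes, 36 were called (56.25%, against 45.4% of all genes tested), 22 higher and 14 lower, and 28 did not pass. The libraries of the genotypes did not overlap for 32 genes (50%, against 38.8%). Without overlap, 20 of the 64 were higher and 12 of the 64 lower, where 19.6% and 19.2% of all genes tested were. Most members were well read, and among the 3429 genes with a mean of at least 50 CPM 54.4% were called and 47% did not overlap, beside 23 and 21 of the 41 members in that range, a comparison chosen after seeing the data. The changes were small. The median log2 fold change (*miR-34a-/-* over wild-type) of the 64 members was -0.01, against -0.0012 over all genes tested, and its median size was 0.15, against 0.23. With a mean of at least 50 CPM, the median size was 0.11 in the 41 members and 0.13 over all genes tested. In 38 members the change was under 0.2 on the log2 scale. Only *eif2s1b*, *eif3hb* and *eif4ebp3l* passed 1.5-fold, a limit that 17.6% of all genes and 3.65% of those with at least 50 CPM passed, and no member passed 2-fold. Among the 23 members under 50 CPM 11 were higher and 2 lower (13 called), in a range where 42.4% of genes were called, 21.3% higher and 21.1% lower. Among the 41 members above it 11 were higher and 12 lower, where 28.1% of genes were higher and 26.4% lower. This split was made after the values were seen.

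**Figure D1:**
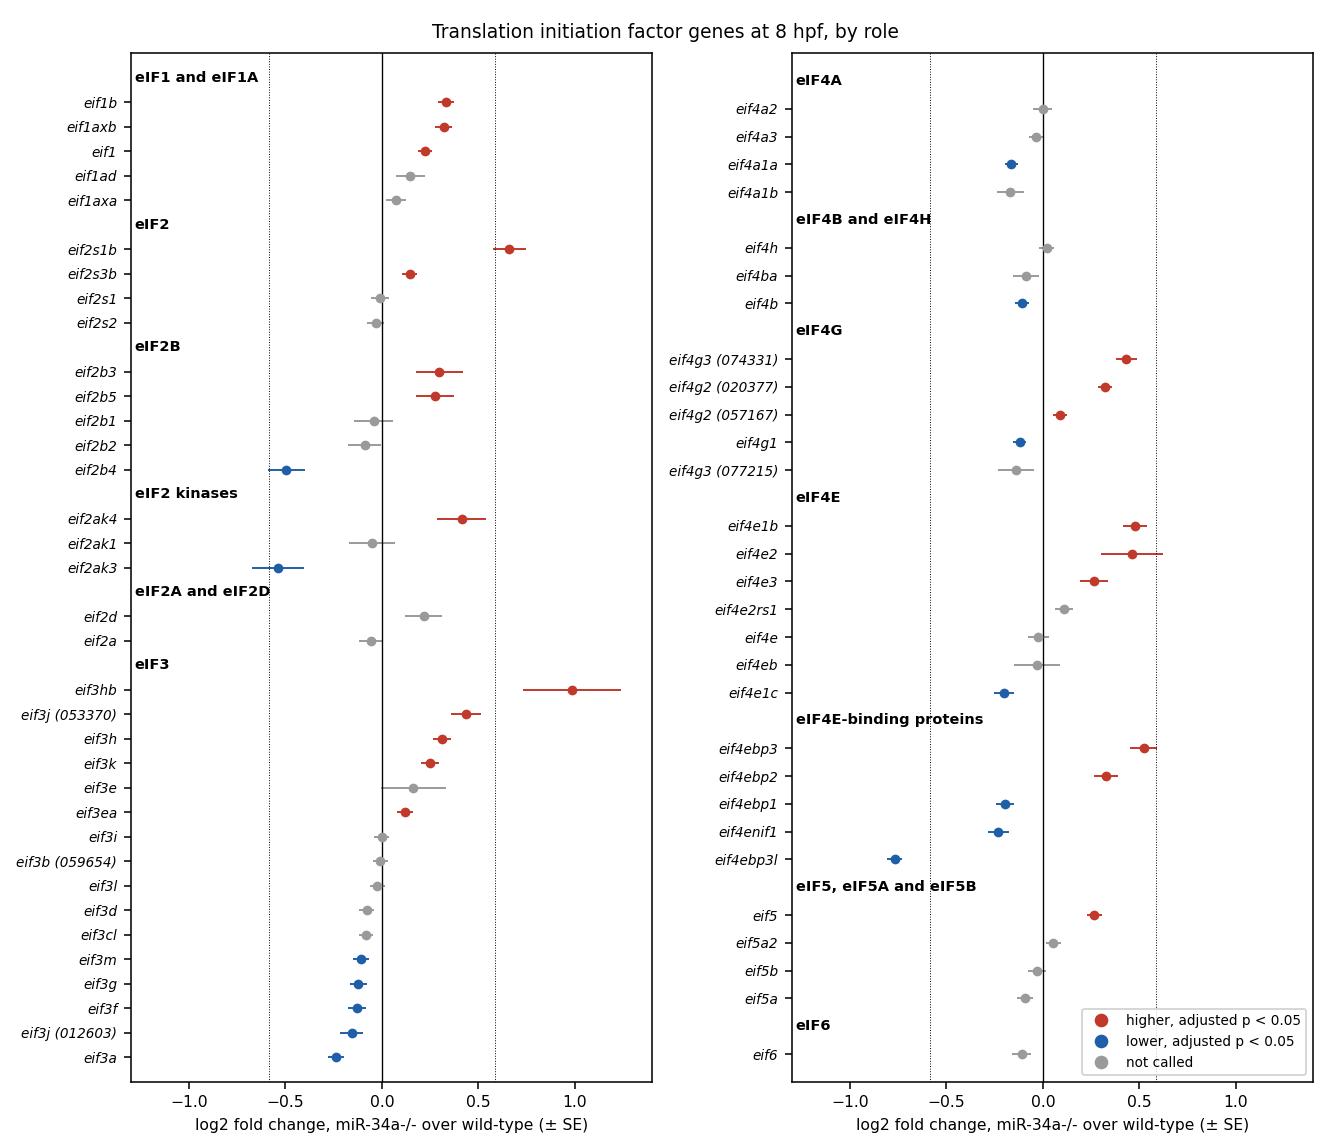
Log2 fold change (*miR-34a-/-* over wild-type) of the 64 initiation factor genes, ordered by factor, with bars of 1 standard error, 4 libraries per genotype. Red points (22, right of 0) and blue points (14, left of 0) passed the test at an adjusted p under 0.05, and grey points did not. The points farthest from 0 are *eif3hb* at 0.99 and *eif4ebp3l* at -0.77.

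The eIF4E-binding proteins (4E-BPs) hold eIF4E away from eIF4G until the kinase complex mTORC1 phosphorylates them. All 4 of their genes were called (against 45.4% of all genes tested), in opposite directions. The most read of them, *eif4ebp3l*, had 419.7, 410.2, 426 and 401 CPM in wild-type replicates 1 to 4 and 249, 242, 252 and 232 CPM in *miR-34a-/-* replicates 1 to 4. Every mutant library was thus far below every wild-type library, and the level fell by 41.2% (log2 fold change -0.77, SE 0.04, adjusted p = 8.8e-15). The *eif4ebp1* gene had 133, 134, 127 and 126 CPM in the wild-type and 111, 116, 120.4 and 108 CPM in the mutant libraries, a smaller fall without overlap (log2 fold change -0.20, SE 0.05, adjusted p = 0.0018). The remaining pair rose. The *eif4ebp2* gene had 39.5, 36.8, 39.3 and 39.03 CPM in the wild-type and 50.5, 49.2, 49.2 and 45.5 CPM in the mutant libraries (log2 fold change 0.33, SE 0.06, adjusted p = 0.00011). The *eif4ebp3* gene had 28.03, 28.2, 24.9 and 27.4 CPM and 38.3, 39.1, 37.5 and 40.2 CPM, in the same order (log2 fold change 0.52, SE 0.07, adjusted p = 8.4e-07). For both genes the lowest mutant library lay above the highest wild-type library.

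Added up, the 4E-BP genes had 610.2 ± 11.8 CPM in the wild-type and 445 ± 14.2 CPM in the mutant libraries, without overlap. The share of these reads that came from *eif4ebp3l* was 67.9 ± 0.804% in wild-type and 54.8 ± 0.602% in *miR-34a-/-* embryos (exact permutation test, two-sided, p = 0.0286, the smallest that 4 against 4 libraries allow). With *eif4ebp3l* lower in every mutant library and the other 4E-BP genes changed by far fewer CPM, the sum and this share had to separate. The sum and the test of the share therefore add nothing to the fall of *eif4ebp3l* itself. The *eif4enif1* gene encodes 4E-T, an eIF4E-binding protein that in other animals carries eIF4E to the nucleus and to P-bodies. It had 75.2, 72.6, 78.99 and 73.2 CPM in the wild-type and 67.2, 62.3, 64.4 and 62.4 CPM in the mutant libraries, which did not overlap, and fell (log2 fold change -0.23, SE 0.05, adjusted p = 0.001).

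The cap-binding eIF4E family held 7 genes, of which 3 were higher, 1 was lower and 3 did not pass. Called were thus 57.1% of them, against 45.4% of all genes tested. The canonical copies were among those that did not pass. The *eif4e* gene had 88.9, 95.9, 88.1 and 84.1 CPM in the wild-type and 87.8, 85.1, 86.3 and 92.2 CPM in the mutant libraries, with overlap (log2 fold change -0.02, SE 0.05, adjusted p = 0.75), and *eif4eb* had 9.34 ± 0.758 and 9.06 ± 0.647 CPM (log2 fold change -0.03, SE 0.12, adjusted p = 0.85). The *eif4e1b* gene encodes a form known from the gonads and early embryos of vertebrates, where its mRNA is maternal. It had 36.1, 33.9, 32.97 and 35.4 CPM in wild-type replicates 1 to 4 and 45.3, 47.99, 48.3 and 50.2 CPM in *miR-34a-/-* replicates 1 to 4. All 4 mutant libraries lay above all wild-type libraries (log2 fold change 0.48, SE 0.06, adjusted p = 8.2e-07). The *eif4e1c* gene, a further fish copy of eIF4E, moved the other way, from 147, 142, 127 and 141 CPM to 127, 116, 126 and 117 CPM. Its highest mutant library (126.6 CPM) lay just below its lowest wild-type library (127.1 CPM), and it fell (log2 fold change -0.20, SE 0.05, adjusted p = 0.0023).

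The remaining eIF4E genes encode divergent cap-binding proteins, of which the eIF4E2 type (4EHP) binds the cap without recruiting eIF4G and is known as a repressor. The *eif4e2* gene, with 3.55, 4.54, 4.23 and 5.18 CPM in wild-type and 5.33, 6.65, 5.39 and 6.35 CPM in mutant libraries, was higher (log2 fold change 0.46, SE 0.16, adjusted p = 0.021). This call rested on few reads and was lost without wild-type replicate 1 (adjusted p = 0.072) or replicate 3 (0.051) and without *miR-34a-/-* replicate 2 (0.065) or replicate 4 (0.064). Its relative *eif4e2rs1* had 128 ± 4.31 and 138 ± 4.09 CPM, without overlap but short of the test's threshold (log2 fold change 0.11, SE 0.05, adjusted p = 0.056). The *eif4e3* gene rose from 29.9, 30.4, 26.7 and 30.5 CPM to 35.4, 33.5, 34.9 and 36.6 CPM, again without overlap (log2 fold change 0.26, SE 0.07, adjusted p = 0.0036). In sum the family read 434 ± 17.2 CPM in the wild-type and 445 ± 9.48 CPM in the mutant libraries, and the libraries overlapped.

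**Figure D2:**
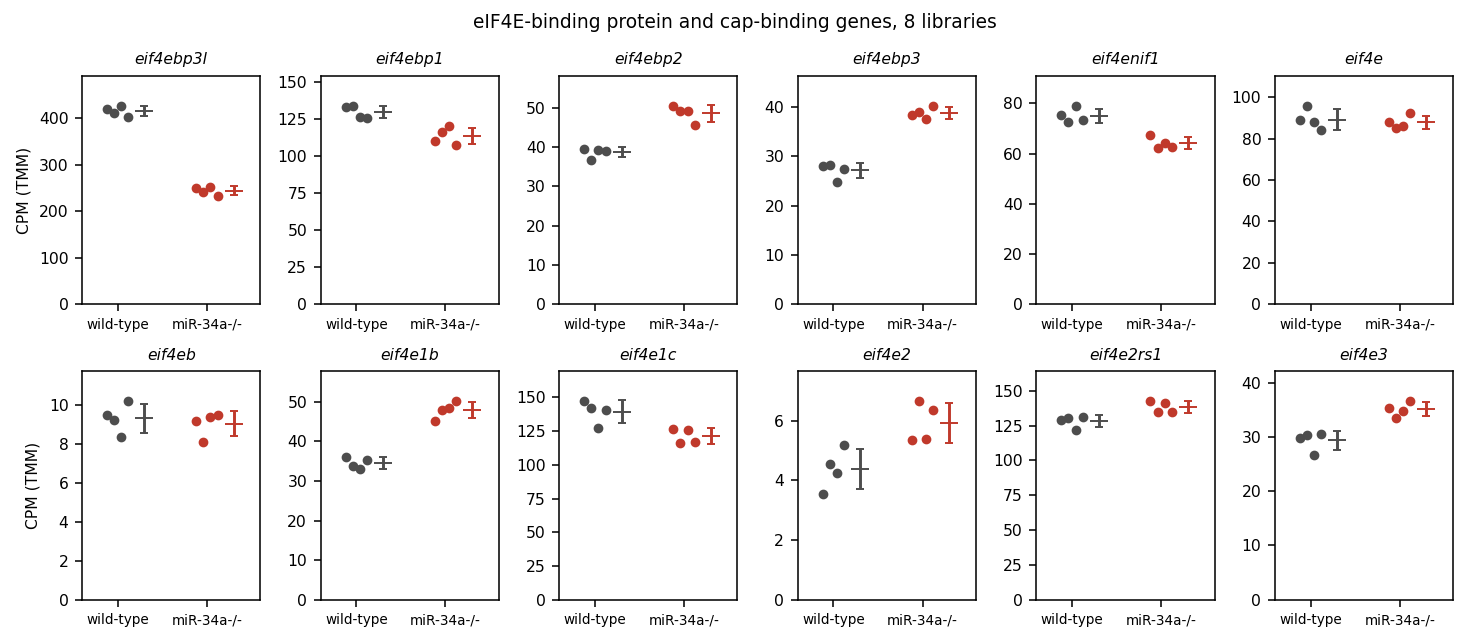
CPM (TMM-scaled, linear axis from 0) of the genes for the eIF4E family, the 4E-BPs and 4E-T in each of the 8 libraries, with mean and SD beside the points (n = 4). The *eif4ebp3l* libraries sit near 414 CPM in the wild-type and near 244 CPM in the mutant libraries, while those of *eif4ebp2*, *eif4ebp3* and *eif4e1b* are higher in every mutant library.

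The eIF4G proteins are the scaffold between eIF4E, eIF4A and eIF3. Their 5 genes held 4 calls (80%, against 45.4% of all genes tested). *eif4g1* fell from 653 ± 8.94 to 601 ± 18.01 CPM (log2 fold change -0.12, SE 0.04, adjusted p = 0.0072). Of the genes for eIF4G2, also called DAP5, which lacks the eIF4E-binding part, the copy ENSDARG00000020377 had 416, 427, 418 and 421 CPM in the wild-type and 527, 534, 511 and 531 CPM in the mutant libraries. Its mutant libraries all lay higher (log2 fold change 0.32, SE 0.04, adjusted p = 3.5e-08). The other *eif4g2* copy (ENSDARG00000057167) went from 649.6 ± 12.9 to 691 ± 8.10 CPM (log2 fold change 0.09, SE 0.03, adjusted p = 0.036), a call lost in 6 of the 8 fits that leave out a library, with adjusted p between 0.054 and 0.096 without wild-type replicates 2, 3 or 4 or *miR-34a-/-* replicates 1, 2 or 4. The *eif4g3* copy ENSDARG00000074331 rose from 54.3, 52.4, 54.04 and 54.4 CPM to 76.6, 71.2, 71.4 and 71.02 CPM, with no overlap (log2 fold change 0.43, SE 0.05, adjusted p = 3.1e-07). The other *eif4g3* copy (ENSDARG00000077215) had 22.1 ± 2.83 and 20.1 ± 0.799 CPM and did not pass (log2 fold change -0.14, SE 0.09, adjusted p = 0.22). The summed eIF4G reads were 1799 ± 18.7 CPM in the wild-type and 1910.2 ± 17.8 CPM in the mutant libraries, without overlap.

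Of the genes for the RNA helicase eIF4A and its cofactors eIF4B and eIF4H, 2 of 7 were called and both were lower. Over all genes tested 45.4% were called and 22.4% were lower. The helicase gene *eif4a1a* had 846, 820.3, 830.1 and 840.3 CPM in the wild-type and 765, 758, 725 and 735 CPM in the mutant libraries. Every mutant library was below every wild-type library, although the change was small (log2 fold change -0.16, SE 0.03, adjusted p = 0.00037). Its copy *eif4a1b* had 37.2 ± 1.83 and 33.2 ± 2.40 CPM (log2 fold change -0.17, SE 0.07, adjusted p = 0.056), so that a change of like size did not pass. The most read gene of factor 4 was *eif4a3*, whose product is a core subunit of the exon junction complex, and it had 860.0 ± 29.8 and 838 ± 4.87 CPM (log2 fold change -0.04, SE 0.04, adjusted p = 0.42). The cofactor gene *eif4b* was lower at 578 ± 4.44 CPM against 623 ± 19.2 CPM in wild-type (log2 fold change -0.11, SE 0.04, adjusted p = 0.017), a call lost without wild-type replicate 4 (adjusted p = 0.054). Its copy *eif4ba* had 43.5 ± 1.73 and 41.1 ± 3.95 CPM (log2 fold change -0.09, SE 0.07, adjusted p = 0.32). The genes *eif4a2*, for a further eIF4A helicase (log2 fold change -0.00, SE 0.05, adjusted p = 0.99), and *eif4h* (log2 fold change 0.02, SE 0.04, adjusted p = 0.7) did not pass. The summed eIF4A reads were 1845 ± 35.4 CPM in the wild-type and 1731 ± 19.2 CPM in the mutant libraries, without overlap. Those of eIF4B and eIF4H overlapped.

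eIF2 is made of alpha, beta and gamma subunits, and phosphorylation of the alpha subunit lowers initiation on most mRNAs. The alpha subunit had a pair of genes. The far more read *eif2s1* had 318, 327, 309 and 322 CPM in the wild-type and 326, 315, 343 and 284 CPM in the mutant libraries, with overlap (log2 fold change -0.01, SE 0.05, adjusted p = 0.85). Its copy *eif2s1b* had 17.3, 18.2, 18.95 and 18.6 CPM in wild-type replicates 1 to 4 and 25.7, 27.9, 31.2 and 30.5 CPM in *miR-34a-/-* replicates 1 to 4. These did not overlap, and *eif2s1b* rose by more than 1.5-fold (log2 fold change 0.66, SE 0.08, adjusted p = 3.4e-07). The gene for the beta subunit, *eif2s2*, had 348 ± 17.9 and 341 ± 15.1 CPM and did not pass (log2 fold change -0.03, SE 0.04, adjusted p = 0.56). The gene for the gamma subunit, *eif2s3b*, was the most read of factor 2 and was higher, at 459 ± 9.28 against 416 ± 15.5 CPM (log2 fold change 0.14, SE 0.04, adjusted p = 0.0031). The log2 fold changes of the subunit genes thus ran from -0.03 to 0.66, with 2 of 4 higher and 2 not called. Over all genes tested 23% were higher.

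The kinases that phosphorylate eIF2 alpha read different stresses, and their genes had few reads. The gene for PERK, the kinase of the endoplasmic reticulum, is *eif2ak3*, and it had 8.58, 7.75, 10.3 and 8.39 CPM in the wild-type and 5.65, 6.37, 5.998 and 6.16 CPM in the mutant libraries. It was lower in every mutant library (log2 fold change -0.54, SE 0.13, adjusted p = 0.0018). The gene for GCN2, which senses uncharged tRNA, is *eif2ak4*, and it had 8.01, 7.75, 8.99 and 6.16 CPM in the wild-type and 8.78, 11.1, 11.1 and 10.6 CPM in the mutant libraries. It passed the test as higher (log2 fold change 0.41, SE 0.13, adjusted p = 0.011), although the libraries overlapped (exact permutation test, two-sided, p = 0.0571). The gene for HRI, known as the heme-regulated kinase, is *eif2ak1*, with 9.88 ± 1.22 and 9.54 ± 0.446 CPM (log2 fold change -0.05, SE 0.12, adjusted p = 0.75). PKR, the kinase activated by double-stranded RNA, is the gene below the minimum described first. Its highest mutant library (0.577 CPM) lay below its lowest wild-type library (0.700 CPM), and edgeR's filter left it untested.

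eIF2B recharges eIF2 with GTP and is the complex that phosphorylated eIF2 blocks. Of its 5 genes, 2 were higher and 1 was lower (60% called, against 45.4% of all genes tested). The gene of the delta subunit, *eif2b4*, had 21.5, 23.2, 21.6 and 19.4 CPM in the wild-type and 16.5, 16.3, 12.9 and 15.1 CPM in the mutant libraries. The mutant libraries all lay below the wild-type libraries (log2 fold change -0.50, SE 0.09, adjusted p = 0.00011), the lowest change of the complex. The highest was that of *eif2b3*, the gamma subunit gene, which had 11.2, 9.36, 9.87 and 10.4 CPM in wild-type and 10.9, 15.4, 12.9 and 11.03 CPM in mutant libraries. The groups overlapped (log2 fold change 0.30, SE 0.12, adjusted p = 0.049), and the call was lost in 5 of the fits that leave out a library, with adjusted p between 0.07 and 0.25. These were the fits without wild-type replicates 2, 3 or 4 and without *miR-34a-/-* replicates 2 or 3. The call of *eif2b5*, the epsilon subunit gene, was lost in 4 such fits (adjusted p 0.051 to 0.098, without wild-type replicates 1 or 2 or *miR-34a-/-* replicates 2 or 3). It had 19.7 ± 2.61 CPM in the wild-type and 23.95 ± 2.84 CPM in the mutant libraries, with overlap (log2 fold change 0.27, SE 0.10, adjusted p = 0.025). The *eif2b1* gene (alpha subunit, log2 fold change -0.04, SE 0.10, adjusted p = 0.77) and *eif2b2* (beta subunit, log2 fold change -0.09, SE 0.08, adjusted p = 0.4) did not pass.

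**Figure D3:**
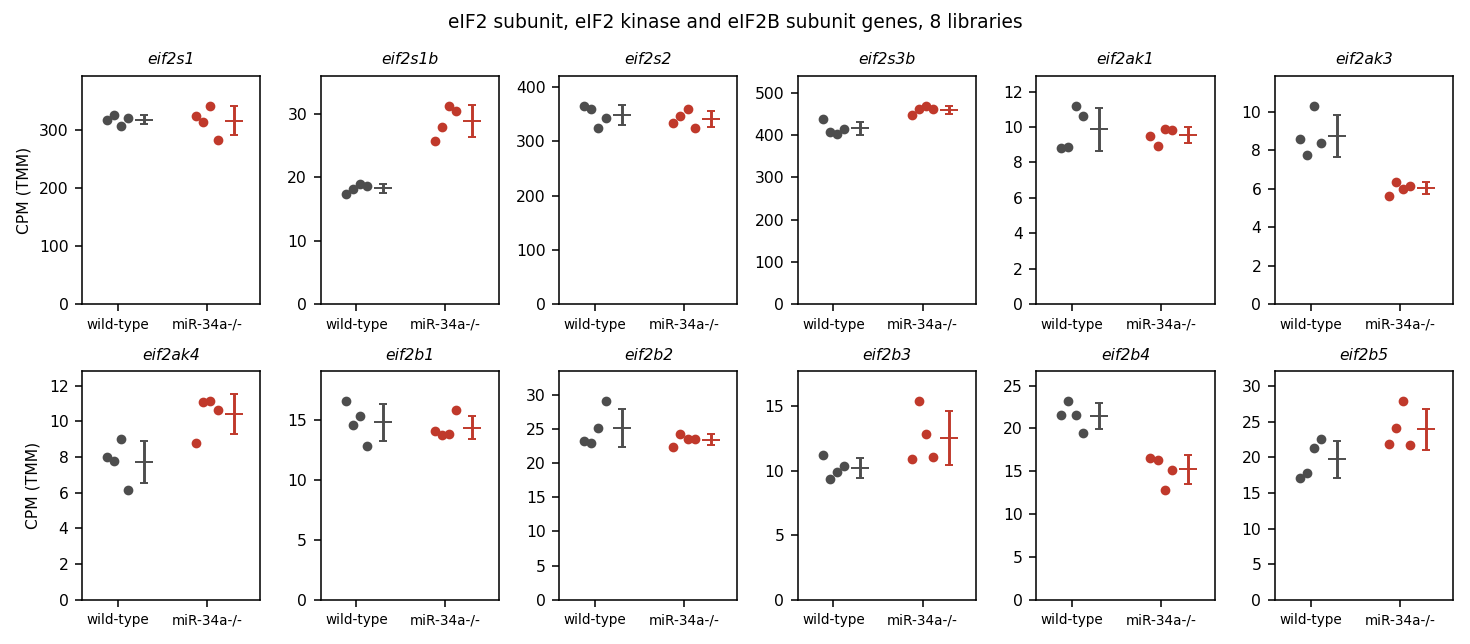
CPM (TMM-scaled, linear axis from 0) of the genes for the eIF2 subunits, the eIF2 kinases and the eIF2B subunits in each of the 8 libraries, with mean and SD beside the points (n = 4). The *eif2s1b* points are all higher, and those of *eif2ak3* and *eif2b4* all lower, in *miR-34a-/-* embryos, while *eif2s1* overlaps at 319 and 317 CPM.

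eIF3 is the largest initiation factor, a scaffold on the small ribosomal subunit. Its 16 genes were divided, with 5 higher, 5 lower and 6 not called (62.5% called, against 45.4% of all genes tested). The *eif3a* gene encodes a core subunit and had 659, 658, 587 and 685 CPM in the wild-type and 556, 551, 553 and 536 CPM in the mutant libraries. It was lower without overlap (log2 fold change -0.24, SE 0.04, adjusted p = 3.4e-05), the lowest change of the factor. The *eif3cl* gene, for another core subunit, had the highest mean over the 8 libraries, ahead of *eif3a* by a small margin, with 635, 602, 599.6 and 627 CPM in the wild-type and 578, 582, 601 and 566 CPM in the mutant libraries. These overlapped, and it did not pass (log2 fold change -0.08, SE 0.04, adjusted p = 0.067). The other lower genes were *eif3f* (log2 fold change -0.13, adjusted p = 0.021), *eif3g* (log2 fold change -0.12, adjusted p = 0.023), *eif3m* (log2 fold change -0.11, adjusted p = 0.033) and the *eif3j* copy ENSDARG00000012603. Each of these calls was lost when certain libraries were left out. That of *eif3f* was lost without wild-type replicate 1 or *miR-34a-/-* replicates 1 or 2 (adjusted p 0.056 to 0.097), and that of *eif3g* without *miR-34a-/-* replicates 1, 2 or 4 (adjusted p 0.055 to 0.11). That of *eif3m* was lost without wild-type replicates 1 or 2 or *miR-34a-/-* replicates 1, 2 or 4 (adjusted p 0.069 to 0.11). The higher genes included *eif3h*, which had 129, 130.1, 123 and 134 CPM in the wild-type and 151, 157, 171 and 159 CPM in the mutant libraries. All mutant libraries were above all wild-type libraries (log2 fold change 0.31, SE 0.05, adjusted p = 6.7e-06). Its little-read copy *eif3hb* showed the highest change of the factor, from 1.72, 0.757, 1.59 and 2.10 CPM to 3.14, 3.10, 2.82 and 2.82 CPM (log2 fold change 0.99, SE 0.25, adjusted p = 0.0024). The libraries did not overlap, but the lowest of them held 8 counts. The *eif3k* gene, for a peripheral subunit, was higher as well, at 196 ± 6.73 against 165 ± 6.54 CPM (log2 fold change 0.25, SE 0.04, adjusted p = 4.6e-05). The genes *eif3b* (ENSDARG00000059654), *eif3d*, *eif3i* and *eif3l* did not pass, with log2 fold changes of -0.01, -0.08, -0.00 and -0.02 and adjusted p between 0.11 and 0.99. Among the 12 eIF3 genes with at least 100 CPM 3 were higher and 4 lower. Of all genes tested with at least 50 CPM, 54.4% were called, 28.1% higher and 26.4% lower. The summed eIF3 reads were 4389.9 ± 129.7 CPM in the wild-type and 4261 ± 82.2 CPM in the mutant libraries, with overlap.

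For eIF3j, a loosely bound subunit, 2 genes were read, and they moved in opposite directions. The copy ENSDARG00000053370 had 24.6, 25.9, 24.2 and 23.1 CPM in the wild-type and 32.4, 31.3, 37.5 and 32.1 CPM in the mutant libraries. It was higher without overlap (log2 fold change 0.44, SE 0.08, adjusted p = 4.3e-05). The copy ENSDARG00000012603 went from 68.1 ± 3.04 to 61.4 ± 3.18 CPM, with overlap (log2 fold change -0.16, SE 0.06, adjusted p = 0.027), and its call was lost without wild-type replicates 1, 2 or 3 or *miR-34a-/-* replicates 2 or 4 (adjusted p 0.05 to 0.11). For eIF3e, *eif3ea* was higher at 335 ± 11.6 against 308 ± 13.9 CPM, with overlap (log2 fold change 0.12, SE 0.04, adjusted p = 0.019), and lost its call without wild-type replicate 4 (0.085) or *miR-34a-/-* replicate 3 (0.056). The gene named *eif3e* did not pass (log2 fold change 0.16, SE 0.17, adjusted p = 0.45).

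eIF1 and eIF1A keep the scanning ribosome open until it meets a start codon in good context. Of the 5 genes with an eif1 symbol, 3 were higher and 2 did not pass, while 23% of all genes tested were higher. The most read gene, *eif1*, had 364, 368, 347 and 365 CPM in the wild-type and 423, 435, 412 and 415 CPM in the mutant libraries (log2 fold change 0.22, SE 0.04, adjusted p = 2.4e-05). Its relative *eif1b* had 226, 243, 229 and 238 CPM and 303, 279, 293 and 303 CPM (log2 fold change 0.33, SE 0.04, adjusted p = 2.7e-07). The eIF1A gene *eif1axb* had 187, 187, 174 and 171 CPM and 226, 224, 219.7 and 226 CPM (log2 fold change 0.32, SE 0.04, adjusted p = 8e-07). In all 3 the lowest mutant library was above the highest wild-type library. Its copy *eif1axa* had 97.5 ± 3.92 and 103 ± 4.62 CPM (log2 fold change 0.07, SE 0.05, adjusted p = 0.26), and *eif1ad* did not pass either (log2 fold change 0.15, SE 0.07, adjusted p = 0.1). The *eif1ad* gene is counted here by its symbol only. With it, the 5 genes summed to 912 ± 21.1 CPM in the wild-type and 1087 ± 6.90 CPM in the mutant libraries, a difference of 19.1% without overlap. Most of these reads came from the 3 genes that each separated upwards, so this sum adds nothing to their calls.

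Of the factors that act at the end of initiation, eIF5 triggers GTP hydrolysis by eIF2 once the start codon is found. The *eif5* gene had 503, 488, 463 and 501 CPM in the wild-type and 587, 563, 597 and 603 CPM in the mutant libraries. It was higher without overlap (log2 fold change 0.27, SE 0.04, adjusted p = 2.2e-06). The *eif5b* gene, for the factor that joins the subunits, had 153 ± 2.68 and 149.8 ± 7.90 CPM (log2 fold change -0.03, SE 0.05, adjusted p = 0.64). The genes of eIF5A, which is now known as a factor of elongation and termination that carries the modified residue hypusine, did not pass either. They were *eif5a*, at 439 ± 22.9 and 411 ± 15.1 CPM (log2 fold change -0.09, SE 0.04, adjusted p = 0.065), and *eif5a2*, at 427 ± 17.8 and 444 ± 8.92 CPM (log2 fold change 0.05, SE 0.04, adjusted p = 0.27). The genes of factor 5 summed to 1508 ± 38.3 CPM in the wild-type and 1592 ± 13.5 CPM in the mutant libraries, without overlap, although only *eif5* was called. The *eif6* gene, whose product keeps large and small subunits apart, had 98.9, 104, 95.9 and 100.0 CPM in the wild-type and 89.8, 90.5, 96.7 and 92.6 CPM in the mutant libraries, with overlap and short of the threshold (log2 fold change -0.11, SE 0.05, adjusted p = 0.073). The genes *eif2a* (log2 fold change -0.06, SE 0.06, adjusted p = 0.48) and *eif2d* (log2 fold change 0.22, SE 0.10, adjusted p = 0.069), whose products can deliver initiator tRNA in other ways, were not called.

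Zebrafish keeps many of these genes as paralogues, and the ratio of a pair within a library hardly depends on how the library was scaled. Of 13 pairs, 6 had a log2 ratio (of CPM plus 0.5) without overlap between the genotypes, and for each of these the exact permutation test (two-sided, over 70 assignments of the libraries) gave p = 0.0286, the smallest it can give. These p-values are not adjusted, and no pair would pass 0.05 with a Benjamini-Hochberg adjustment over the 13. Among single genes, 38.8% of all tested and 47% of those with at least 50 CPM did not overlap. The share for ratios of other gene pairs was not computed, so the 6 pairs are not read as a trait of these paralogues. The copy with fewer reads gained on the other in 4 of the 6 pairs, and the copy with more reads did so in 2. The log2 ratio of *eif4ebp3* over *eif4ebp3l* was -3.91 ± 0.110 in wild-type and -2.64 ± 0.0973 in *miR-34a-/-* libraries. This was a 2.42-fold change of the ratio, and the mutant libraries all lay higher. Each gene of this pair separated the genotypes alone, in opposite directions, so that their ratio had to separate too. The ratio of *eif2s1b* over *eif2s1* changed by 0.65 on the log2 scale, that of the *eif3j* copies (ENSDARG00000053370 over ENSDARG00000012603) by 0.59, and that of the *eif4g2* copies (ENSDARG00000020377 over ENSDARG00000057167) by 0.23, each towards the copy with fewer reads.

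Towards the copy with more reads, the ratio of the *eif4g3* genes (ENSDARG00000074331 over ENSDARG00000077215) changed by 0.55. The ratio of *eif1axa* over *eif1axb* was -0.88 ± 0.0932 in wild-type and -1.12 ± 0.0792 in *miR-34a-/-* libraries, a change of -0.25. In the other 7 pairs the libraries overlapped. The change of the log2 ratio was 0.51 for *eif3hb* over *eif3h* (exact permutation p = 0.0571), 0.15 for *eif5a2* over *eif5a* (exact permutation p = 0.0571) and 0.11 for *eif1b* over *eif1* (exact permutation p = 0.114). It was 0.02 for *eif4ba* over *eif4b*, -0.0026 for *eif4a1a* over *eif4a1b*, -0.0098 for *eif3e* over *eif3ea* and -0.02 for *eif4eb* over *eif4e*. Where copies are near-identical the counting may have shared their reads out, and its handling of shared reads and of strand is not given in the sources used here. Its part in these ratios was not tested.

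**Figure D4:**
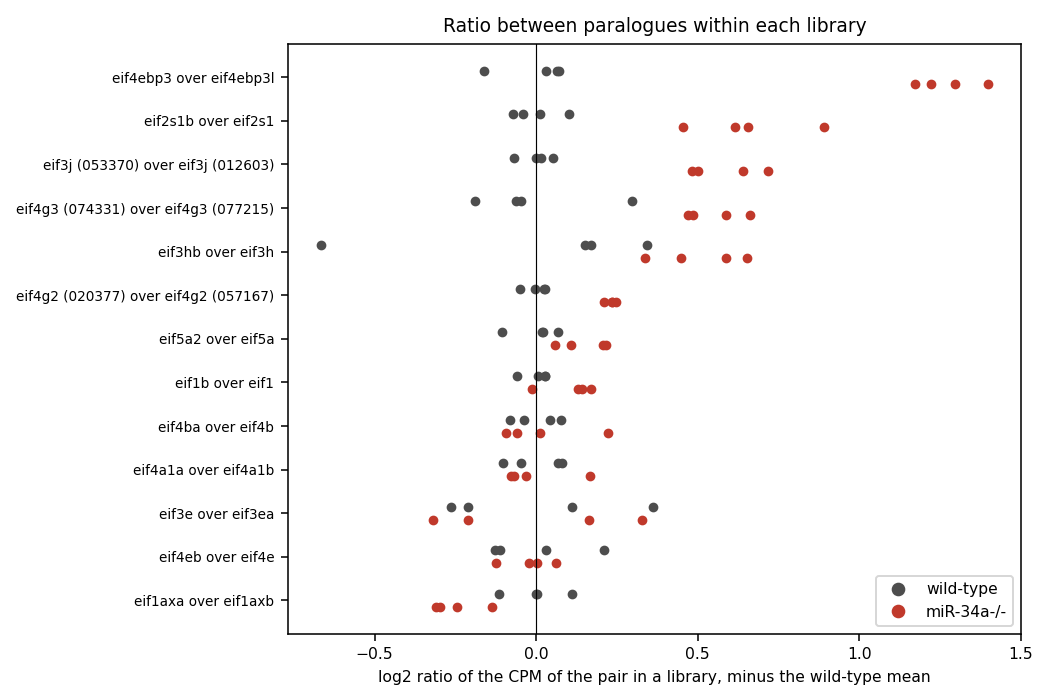
Log2 ratio of CPM plus 0.5 for 13 pairs of paralogous initiation factor genes in each of the 8 libraries, drawn as the distance from the wild-type mean of the pair (0 on the horizontal axis). The genotypes separate in 6 pairs, most widely for *eif4ebp3* over *eif4ebp3l*, with a mutant mean 1.27 to the right of the wild-type mean.

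Genes that act beside the initiation factors were taken from lists chosen with earlier results of these data known. Listed genes whose name matched no row, or more than 1, were left out, so the lists do not cover whole pathways. Matched were 4 of 8 genes listed for termination and recycling, 11 of 15 for mTORC1 and MNK, and all 10 for the integrated stress response. Over all genes tested 23% were higher and 22.4% lower, the shares to set beside the counts of these lists. Of 10 genes tested for mTORC1 and the MNK kinases, which set the phosphorylation of the 4E-BPs and of eIF4E, 2 were lower and 8 did not pass. The lower genes were *ddit4*, an inhibitor of mTORC1, at 178 ± 8.14 against 231 ± 20.6 CPM in wild-type (log2 fold change -0.37, SE 0.05, adjusted p = 1.5e-06), and the S6 kinase gene *rps6kb1b* at 137 ± 3.82 against 172 ± 5.61 CPM (log2 fold change -0.33, SE 0.04, adjusted p = 9.5e-07). Of 9 genes tested of the integrated stress response, the programme set off by eIF2 phosphorylation, 3 were higher and 1 was lower. Its transcription factor gene *atf4b* was higher (log2 fold change 0.37, SE 0.05, adjusted p = 2.3e-06) and *trib3* lower (log2 fold change -0.23, SE 0.06, adjusted p = 0.0019). Also higher were *gcn1* (log2 fold change 0.16, SE 0.04, adjusted p = 0.0036) and *chac1* (log2 fold change 0.20, SE 0.05, adjusted p = 0.0043). Among those that did not pass were *atf4a* (log2 fold change -0.04, SE 0.04, adjusted p = 0.39) and *ddit3*, which encodes CHOP (log2 fold change -0.02, SE 0.13, adjusted p = 0.91). Among 9 genes tested of other helpers of scanning and ribosome recruitment, 4 were higher and 1 was lower. The lower gene was that of the helicase Ddx3, *ddx3xa*, which went from 172 ± 4.65 to 122 ± 7.83 CPM (log2 fold change -0.49, SE 0.05, adjusted p = 3.8e-09), and *pdcd4a*, for a protein that binds eIF4A, was higher (log2 fold change 0.20, SE 0.04, adjusted p = 0.00039).

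Of 9 genes tested for poly(A)-binding and La-related proteins, 7 did not pass and 2 were lower, *pabpc1b* (log2 fold change -0.35, SE 0.09, adjusted p = 0.0023) and *larp4ab* (log2 fold change -0.21, SE 0.05, adjusted p = 0.0026). The elongation factor genes were higher in 5 and lower in 3 of 11 tested, and the smallest adjusted p belonged to *eef1e1* (log2 fold change 0.66, SE 0.08, adjusted p = 2.4e-07), which encodes a protein of the tRNA synthetase complex, and *eef1db* (log2 fold change 0.63, SE 0.09, adjusted p = 3e-06). Of 3 termination and recycling genes tested, *pelo*, for a protein that rescues stalled ribosomes, was higher (log2 fold change 0.37, SE 0.06, adjusted p = 6.6e-06), and *abce1*, for a recycling factor, did not pass (log2 fold change -0.07, SE 0.04, adjusted p = 0.11).

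Markers of stage and of other cells were read in the same libraries, in which 23% of all genes tested were higher and 22.4% lower. Of 10 gastrula markers, 1 was higher and 7 were lower, with a summed level of 2466 to 2519 CPM in wild-type and 2237 to 2441 CPM in *miR-34a-/-* libraries. Of 5 oocyte and maternal markers tested 3 were higher and 2 did not pass (summed 124 to 140.1 CPM and 123 to 151 CPM), and of 5 germ cell markers 3 were higher and 1 lower (114 to 141 CPM and 115 to 122 CPM). Of 5 markers of the enveloping layer 1 was higher and 2 were lower, and of 4 markers of genome activation 1 was higher. None of the markers of late tissues was tested, 2 of the 5 found were at 0 in all libraries, and their sum was 1.4 to 2.97 CPM in wild-type and 0.911 to 2.09 CPM in *miR-34a-/-* libraries. The part of stage and of maternal transcripts in the results on the initiation factor genes, *eif4e1b* included, was not tested.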

How the data were processed

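Poly-A RNA of zebrafish embryo pools at 8 hpf was sequenced, 4 wild-type and 4 *miR-34a-/-* libraries. The authors trimmed reads with Trim Galore 0.4.4, mapped them with STAR 2.7.8 to danRer11 and deposited raw counts per Ensembl gene, without normalization. The counting program, annotation release and use of strand are not given in the sources used here.

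Symbols came from a table of gene names for 61 of the 66 genes. For 5 they came from the study's own list of genes it reported as differing in the mutant. These were *eif2s1b*, *eif3hb*, *eif4ebp3*, *eif4ebp3l* and *eif2ak2*. In all, 7 members share a symbol with another row and are given with their identifier. CPM values and the test came from R 4.3.3 with edgeR 4.0.16 on the counts (TMM-scaled CPM, filterByExpr, quasi-likelihood test, genotype as the only term, Benjamini-Hochberg adjustment over 13842 genes), and all 64 members passed the filter. The standard error is the size of the log2 fold change divided by the square root of F. Single values were compared by exact two-sided permutation tests over 70 assignments of libraries. The test was also run on simulated counts with far fewer changed genes than were called here, so that run does not check these calls.

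The members and lists were chosen with earlier results of these data known. Named with values were members past 1.5-fold, the most read and the smallest adjusted p of each factor number, the eIF4E family, its binding proteins, the eIF2 kinases and the paralogue pairs, and the 2 smallest adjusted p of each pathway list. All other members, and *atf4a*, *ddit3*, *gcn1* and *chac1*, were named after their values were seen. The rule for pairs by last letter gave 2, and 11 were added after the data were seen. No transcript lengths were used, so levels of different genes are not compared per length. Alternatives were other normalizations, filters and tests (DESeq2 1.42.0, limma 3.58.1), a replicate block, fold limits and leaving out each library. Python 3.11.15 and matplotlib 3.10.9 made the figures.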

Additional observations from a re-analysis of the deposited data

Results flagged for a closer look

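In 128 groups of 4 libraries, 1 library stood far from the other 3 in 6 cases, and chance gives about 1 in 20. In wild-type replicate 3, *eif4a3* was lowest at 815 CPM (others 872 to 878), and so was *eif4e3* at 26.7 CPM (others 29.9 to 30.5). In wild-type replicate 2, *eif4ebp2* was lowest at 36.8 CPM (others 39.0 to 39.5), and in wild-type replicate 4 *eif5a* was lowest at 405 CPM (others 447 to 454). In *miR-34a-/-* replicate 1, *eif4g3* (ENSDARG00000074331) was highest at 76.6 CPM (others 71.0 to 71.4). In *miR-34a-/-* replicate 2, *eif3k* was lowest at 186 CPM (others 198 to 201). The calls of *eif3k*, *eif4e3*, *eif4ebp2* and *eif4g3* (ENSDARG00000074331) passed the test in every fit that left out a library. *eif5a* passed it without wild-type replicate 4 (log2 fold change -0.13, adjusted p = 0.011).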

How the results depend on the processing

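Of the 36 genes called, 26 passed the test in all 17 other fits. The count called was 36 with RLE normalization, 39 with upper quartile normalization, 39 with library totals only, 33 with every gene that had a count, 34 with DESeq2, 35 with edgeR's likelihood ratio test and 37 with limma-voom. Leaving out 1 library gave 28 to 35 calls, 18 to 21 of them higher. The share of calls that were higher was 61.1%, with 53.8% for library totals only and 51.3% for upper quartile normalization. In the upper quartile fit *eif3cl*, *eif3d*, *eif4a1b*, *eif5a* and *eif6*, not called in the main fit, passed as lower (adjusted p 0.023 to 0.044), and 19 genes were lower. With library totals only, *eif3cl*, *eif4a1b*, *eif5a* and *eif6* passed as lower too (adjusted p 0.035 to 0.049), and 18 genes were lower. With limma-voom *eif3cl* (0.046) and *eif4a1b* (0.05 after rounding) passed as lower. All genes gained with upper quartile normalization, *eif1ad* and *eif4g3* (ENSDARG00000077215) also passed in at least 1 fit that left out a library (smallest adjusted p 0.011 to 0.042). A fold change of at least 1.5 left 3 calls, 2 higher and 1 lower, and a fold change of at least 2 left 0, 0 higher and 0 lower (42 members had an unadjusted p under 0.05 by edgeR). The replicate numbers did not pair the libraries, since deviations of same-numbered libraries correlated between -0.039 and 0.011. With the replicate number as a block 34 genes were called, all 34 among the 36, and *eif2b3* (adjusted p = 0.051) and the *eif4g2* copy ENSDARG00000057167 (0.055) were not. The *eif2b3* call was also lost with upper quartile normalization (adjusted p = 0.065), library totals only (0.058), DESeq2 (0.095) and limma-voom (0.066). This *eif4g2* copy lost its call with upper quartile normalization (0.1), every gene that had a count (0.06) and the likelihood ratio test (0.051). Lost too were the calls of *eif4e2* with DESeq2 (0.061), and of *eif3j* (ENSDARG00000012603, 0.052) and *eif3m* (0.067) with every gene that had a count. Among genes that were not called, leaving out 1 library turned the sign of the log2 fold change of *eif2s1* (-0.0468 to 0.0377, positive without *miR-34a-/-* replicate 4), *eif2ak1* (-0.106 to 0.0209, positive without wild-type replicate 3), *eif2b1* (-0.102 to 0.0099, positive without wild-type replicate 1), *eif4e* (-0.0508 to 0.0122, positive without wild-type replicate 2), *eif4eb* (-0.0914 to 0.0193), *eif3b* (ENSDARG00000059654, -0.0363 to 0.0116), *eif3i* (-0.0237 to 0.0170), *eif4a2* (-0.0281 to 0.0243), *eif4h* (-0.0076 to 0.0321) and *eif5b* (-0.0504 to 0.0063). With every gene that had a count it was 0.00498 for *eif3i* and 0.00459 for *eif4a2*, and with the replicate block 0.00043 for *eif4a2*. The cause was not tested. Pairs without overlap numbered 6 to 8 when a library was left out. This count could not fall below 6, since leaving out a library cannot make separate groups overlap, so it does not check the 6. Of the 64 genes, depth limits *eif3hb* most, with 8 counts in its lowest library, followed by *eif4e2* with 31 and *eif3e* with 42.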
